A study of Mus musculus with 16 samples.

Results

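The constitutive proteasome subunits were taken here as the protein-coding mouse genes named *Psma1* to *Psma8*, *Psmb1* to *Psmb7*, *Psmc1* to *Psmc6* and *Psmd1* to *Psmd14*. *Psmb8*, *Psmb9* and *Psmb10*, which encode the catalytic subunits of the immunoproteasome, were not part of the set. The rule used gene names and no measured value, and it gave 35 of the 49585 genes in the count table. The question was whether the mRNAs of these subunits are higher in intestinal epithelium that lacks *Atg16l1*, and therefore part of its autophagy, and whether IL-22 changes them.

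The proteasome degrades proteins that carry ubiquitin chains. Its core particle is a barrel of stacked α and β rings, in which *Psmb5*, *Psmb6* and *Psmb7* encode the subunits that cut peptides, and its regulatory particle binds ubiquitin chains, unfolds the protein with a ring of ATPases and feeds it into the core. Autophagy is the other main route of protein disposal, in which membranes enclose cargo and deliver it to lysosomes, and ATG16L1 belongs to the complex that couples LC3 to these membranes. When proteasome activity is limiting, cells are known to raise subunit genes together through the transcription factor NRF1, which *Nfe2l1* encodes.

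RNA was sequenced from 16 cultures of mouse small intestinal organoids, which are crypts grown in gel as closed epithelium, in 4 groups of 4. *Atg16l1* ΔIEC organoids carry the floxed *Atg16l1* alleles and a Cre recombinase driven by the villin promoter, which acts in intestinal epithelial cells, and *Atg16l1* fl/fl organoids carry the same alleles without Cre (hereafter ΔIEC and fl/fl). Organoids came from mice of 8 to 12 weeks and were left untreated or given IL-22, a lymphocyte cytokine that acts on epithelium, at 10 ng/ml for 24 h. Each genotype was represented by 2 organoid lines with 2 cultures per treatment (cultures 1 and 2 of a group are line 1, cultures 3 and 4 line 2), so a genotype comparison also holds the differences between 2 lines on each side, and a fit with the cultures of a line summed was run beside it. Counts on genes ranged from 2135000 to 5574860 per culture, with a median of 3499277. Levels are given as CPM, counts scaled to library size with TMM factors, fold changes as log2 from the edgeR fit, and a gene was called higher or lower at a Benjamini-Hochberg adjusted p under 0.01 among the 12559 genes tested.

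*Atg16l1* itself measured 38.9, 31.6, 41.3 and 49.2 CPM in the untreated fl/fl cultures and 2.59, 2.71, 1.21 and 4.15 CPM in the untreated ΔIEC cultures. With IL-22 it measured 39.2, 40.0, 51.8 and 48.8 CPM in fl/fl and 0.810, 5.96, 0.302 and 0.289 CPM in ΔIEC cultures. All ΔIEC cultures were below all fl/fl cultures, with a log2 fold change of -3.90 ± 0.367 (SE) untreated (adjusted p = 1.27e-06) and -4.51 ± 0.382 with IL-22 (adjusted p = 2.25e-07). The 7 genes of a general epithelial list were high in every culture, from 6524 to 12310 CPM summed, led by the keratin gene *Krt8*. The 6 stromal genes summed to at most 1.58 CPM in any culture, with *Dcn* at 0 counts throughout, and the 3 endothelial genes to at most 2.72 CPM, with *Cdh5* and *Kdr* at 0. Of the immune genes, the T cell gene *Cd3e* had 0 counts, and *Csf1r*, a macrophage gene, was the most abundant. The immune list summed to 9.09 to 15.8 CPM per culture, and of its 2 tested genes 0 were called in either genotype comparison by edgeR, with *Lyz2*, picked out after its values were seen, higher at an unadjusted p under 0.05 in each (6 counts in untreated fl/fl and 25 in untreated ΔIEC cultures, 11 and 32 with IL-22). *Itgam* and *Csf1r* of the same list went the other way. *Itgam* had 30 counts in untreated fl/fl and 11 in untreated ΔIEC cultures, and 47 and 18 with IL-22. For *Csf1r* these counts were 127 and 119, and 148 and 97 with IL-22.

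Of the 35 subunit genes, 34 were expressed well above the filter on low counts, with at least 42 counts in every culture. *Psma8*, which encodes an α subunit of testis proteasomes, had 0 counts in all 16 cultures, which allows up to 1.41 CPM in the smallest culture and 0.0544 CPM over all of them (3 counts, counting error only). It was not tested. Per kilobase of exon, the 34 others spanned a wide range in untreated fl/fl cultures. *Psma6*, an α ring subunit, was highest at 145 ± 17.04 CPM per kb (SD, n = 4), followed by *Psmb4* at 87.5 ± 11.8 and *Psmb2* at 86.0 ± 8.61 CPM per kb, a pair that did not differ beyond its spread. The assembly chaperone genes *Psmd10*, *Psmd5* and *Psmd9* were among the lowest at 17.2 ± 1.17, 7.74 ± 0.538 and 2.40 ± 0.235 CPM per kb. The gene model of *Psmd9* spans 7248 exon bases, so its level per kb rests on a long model. *Psma6* ranked first and *Psmd9* last of the 34 in each of the 4 groups.

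Summed over the 35 genes, untreated fl/fl cultures had 3969, 4082, 3891 and 3817 CPM and untreated ΔIEC cultures 4686, 4569, 4645 and 4543 CPM. With IL-22 the sums were 4329, 4188, 3896 and 3782 CPM in fl/fl and 5360, 5353, 4868 and 5237 CPM in ΔIEC cultures. Every ΔIEC culture lay above every fl/fl culture, and within the IL-22–treated fl/fl group both line 1 cultures lay above both line 2 cultures. The mean sum in ΔIEC was 1.17 times that of fl/fl untreated and 1.29 times with IL-22. In bulk RNA, a change in the share of cells that express a gene and a change in its level per cell cannot be told apart.

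**Figure D1:**
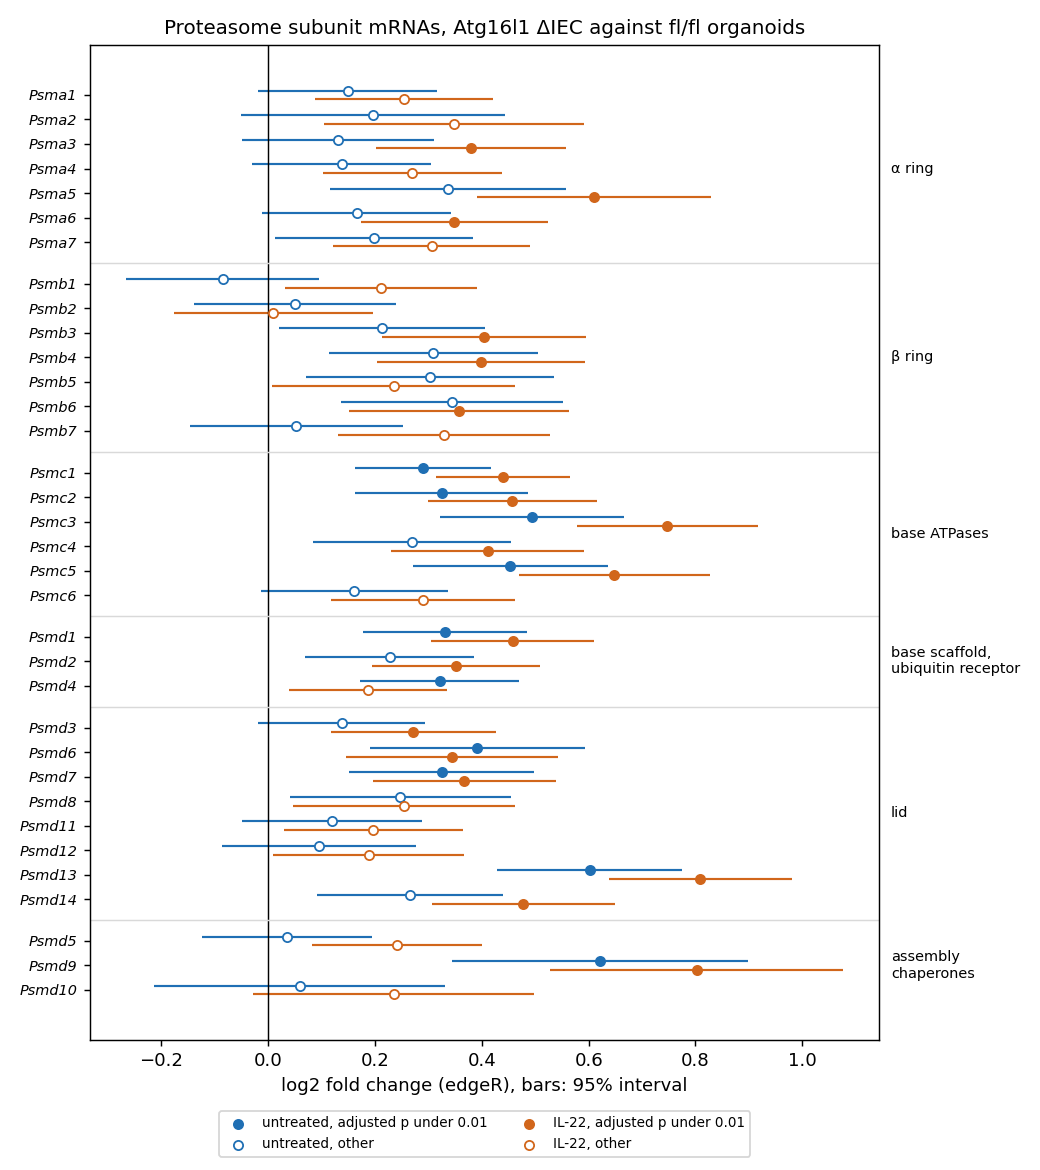
Log2 fold change of ΔIEC against fl/fl organoids (horizontal axis, edgeR, bars 95% intervals) for each of the 34 tested proteasome genes, grouped by their place in the complex, in untreated (blue) and IL-22–treated (orange) cultures. Filled points passed an adjusted p under 0.01, which were 10 genes untreated and 19 with IL-22, and 1 point, *Psmb1* untreated, lies below 0.

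In untreated organoids, part of the proteasome subunit mRNAs were higher in ΔIEC than in fl/fl cultures. In the edgeR fit of all cultures most of those called encode the regulatory particle, which did not hold without fl/fl line 1. Of the 34 tested genes, 10 were called higher and 0 lower, where 3.78% of all genes tested were called higher and 5.98% lower. The log2 fold change was above 0 for 33 of 34 genes, beside 47.7% of all genes, and its median was 0.24 beside -0.02 for all genes. For 22 of 34 genes all 4 ΔIEC cultures were above all 4 fl/fl cultures, which held for 10.6% of all genes. At an unadjusted p under 0.05, 20 genes were higher and 0 lower, beside 1902 and 2391 of all 12559 genes, and DESeq2 called 10 higher and 0 lower, but limma-voom with line as a random effect 3 higher and 0 lower. Taking line 1 or line 2 of ΔIEC against line 1 or line 2 of fl/fl, the median difference of the members was 0.22 to 0.27 and 31 to 34 of 34 genes were above 0 in each of the 4 pairs.

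The particles differed in their counts. Of the 17 tested subunits of the regulatory particle, 9 were higher (median log2 fold change 0.29), and of the 14 tested subunits of the core particle 0 were called (median 0.18), with 6 higher and 0 lower at an unadjusted p under 0.05. Of the 9, limma-voom with line as a random effect called only *Psmd13*, *Psmc3* and *Psmc5*, and edgeR with cultures of a line summed called 0. Without fl/fl line 1 the 4 calls were *Psmd13*, *Psmc3* and the core genes *Psmb4* and *Psmb6*. Library totals added *Psma5*, *Psmb4* and *Psmb6* of the core and *Psmd2* and *Psmd14*. In the edgeR fit of all cultures, 4 of 6 ATPases of the base were higher, among its scaffold subunits and ubiquitin receptor 2 of 3, in the lid 3 of 8, and among the base assembly chaperones 1 of 3. The summed core particle genes measured 1933, 2022, 1794 and 1718 CPM in fl/fl and 2110, 2099, 2092 and 2097 CPM in ΔIEC cultures. The summed regulatory particle genes measured 1944, 1959, 1991 and 2002 CPM in fl/fl and 2463, 2362, 2444 and 2337 CPM in ΔIEC cultures. In both sums the genotypes did not overlap, with a mean ratio of 1.12 for the core and 1.22 for the regulatory particle. Line 1 of fl/fl lay above its line 2 in the core sum and below it in the regulatory sum. The gap between the 2 ratios therefore depends on the fl/fl line. The difference between the particles was not tested.

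*Psmd13* (chr7:140881968-140898643), a lid subunit, had the smallest p of the set. It measured 62.5, 69.4, 72.5 and 76.2 CPM in fl/fl and 114, 102, 108 and 101 CPM in ΔIEC cultures. All ΔIEC cultures were above all fl/fl cultures, with the fold change in log2 at 0.60 ± 0.0829 (SE, adjusted p = 7.42e-05). *Psmd6*, another lid subunit, measured 72.2, 74.0, 71.2 and 70.4 CPM in fl/fl and 104, 92.5, 94.1 and 86.0 CPM in ΔIEC cultures, again without overlap, with a log2 fold change of 0.39 ± 0.0966 (adjusted p = 0.00744). *Psmd7* measured 126, 114, 126 and 120.1 CPM against 156, 148, 157 and 146 CPM, a log2 fold change of 0.32 ± 0.0830 that passed narrowly (adjusted p = 0.00954). The deubiquitinase of the lid, *Psmd14*, had 111, 127, 118 and 108 CPM in fl/fl and 142, 139.8, 145 and 131 CPM in ΔIEC cultures, which did not overlap, but its log2 fold change of 0.27 ± 0.0838 did not pass (adjusted p = 0.0301). *Psmd3*, *Psmd8*, *Psmd11* and *Psmd12* did not pass either, with log2 fold changes of 0.10 to 0.25.

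The ATPases form the ring that unfolds substrates. *Psmc3* (chr2:91054009-91066369) measured 97.0, 96.2, 104 and 104 CPM in fl/fl and 148, 141, 143 and 132 CPM in ΔIEC cultures. *Psmc5* (chr11:106256154-106263120) measured 92.3, 81.4, 85.7 and 81.3 CPM in fl/fl and 115, 117, 116 and 118 CPM in ΔIEC cultures. Neither gene overlapped between genotypes, and the log2 fold changes were 0.49 ± 0.0825 for *Psmc3* (adjusted p = 0.000444) and 0.45 ± 0.0875 for *Psmc5* (adjusted p = 0.00143). *Psmc1* (chr12:100110154-100123405) had 133, 131, 124 and 129 CPM in fl/fl and 164, 158, 155 and 155 CPM in ΔIEC cultures. It was separated between the genotypes, with a log2 fold change of 0.29 ± 0.0608 (adjusted p = 0.00252). *Psmc2*, with 95.8, 95.4, 103 and 109.9 CPM against 128, 120.3, 134 and 124 CPM, was higher by 0.32 ± 0.0774 (adjusted p = 0.00591). *Psmc4* (0.27, adjusted p = 0.0368) and *Psmc6* (0.16, adjusted p = 0.180) did not pass, although all ΔIEC cultures were above all fl/fl cultures for both.

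The base also holds the scaffold subunits *Psmd1* and *Psmd2* and the ubiquitin receptor *Psmd4*. *Psmd1* measured 145, 132, 142 and 142 CPM in fl/fl and 179.7, 181, 178 and 166 CPM in ΔIEC cultures, a log2 fold change of 0.33 ± 0.0738 (adjusted p = 0.00376). *Psmd4* measured 82.4, 85.5, 92.0 and 91.8 CPM against 107, 111, 114 and 107 CPM, a log2 fold change of 0.32 ± 0.0714 (adjusted p = 0.00371). In both genes the genotypes were apart. *Psmd2*, whose mean CPM was the highest of the set, had a log2 fold change of 0.23 ± 0.0759 that did not pass (adjusted p = 0.0397). Of the assembly chaperones, which hold ATPases during assembly of the base and are not part of the finished proteasome, *Psmd9* (chr5:123169413-123250131) measured 16.1, 15.8, 19.0 and 18.7 CPM in fl/fl and 28.1, 22.6, 25.3 and 31.2 CPM in ΔIEC cultures. Its log2 fold change of 0.62 ± 0.133 was the highest of the set (adjusted p = 0.00285). *Psmd5* (0.04, adjusted p = 0.784) and *Psmd10* (0.06, adjusted p = 0.792) did not pass, and their 95% intervals of -0.12 to 0.19 and -0.21 to 0.33 take in 0.

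In the core particle, none of the 3 catalytic subunits passed untreated. *Psmb6* measured 113, 107, 87.9 and 91.0 CPM in fl/fl and 132, 138, 122 and 115 CPM in ΔIEC cultures, without overlap (log2 fold change 0.34 ± 0.0998, adjusted p = 0.0193). *Psmb5* measured 40.6, 32.9, 39.9 and 37.5 CPM against 49.99, 45.3, 47.9 and 41.5 CPM, also without overlap (0.30 ± 0.112, adjusted p = 0.0602). *Psmb7* measured 126, 127, 111 and 102 CPM against 115, 116, 124 and 129 CPM, and here the genotypes overlapped (0.05 ± 0.0958, 95% interval -0.15 to 0.25). *Psmb1*, a structural β subunit, was the 1 gene with a value below 0, at 209, 209, 167 and 166 CPM in fl/fl and 182, 162, 182 and 184 CPM in ΔIEC cultures. The fl/fl lines were further apart than the genotypes (log2 fold change -0.09 ± 0.0867, adjusted p = 0.523). The 7 tested α subunits, which form the gate of the barrel, had log2 fold changes of 0.13 to 0.34, with *Psma5* highest at 0.34 ± 0.106 (adjusted p = 0.0296).

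Single cultures and the handling of lines moved the untreated count. Without 1 culture it fell from 10 to 5 (fl/fl untreated 1), 4 (fl/fl untreated 2), 3 (ΔIEC untreated 1), 5 (ΔIEC untreated 2) or 5 (ΔIEC untreated 3), and without 1 line to 4 (fl/fl line 1), 6 (fl/fl line 2), 3 (ΔIEC line 1) or 4 (ΔIEC line 2). With the line as a random effect in limma-voom 3 genes were called, *Psmd13*, *Psmc3* and *Psmc5*, and with both cultures of a line summed edgeR called 0 (17 higher and 0 lower at an unadjusted p under 0.05), beside 3 higher and 7 lower of 13871 genes.

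**Figure D2:**
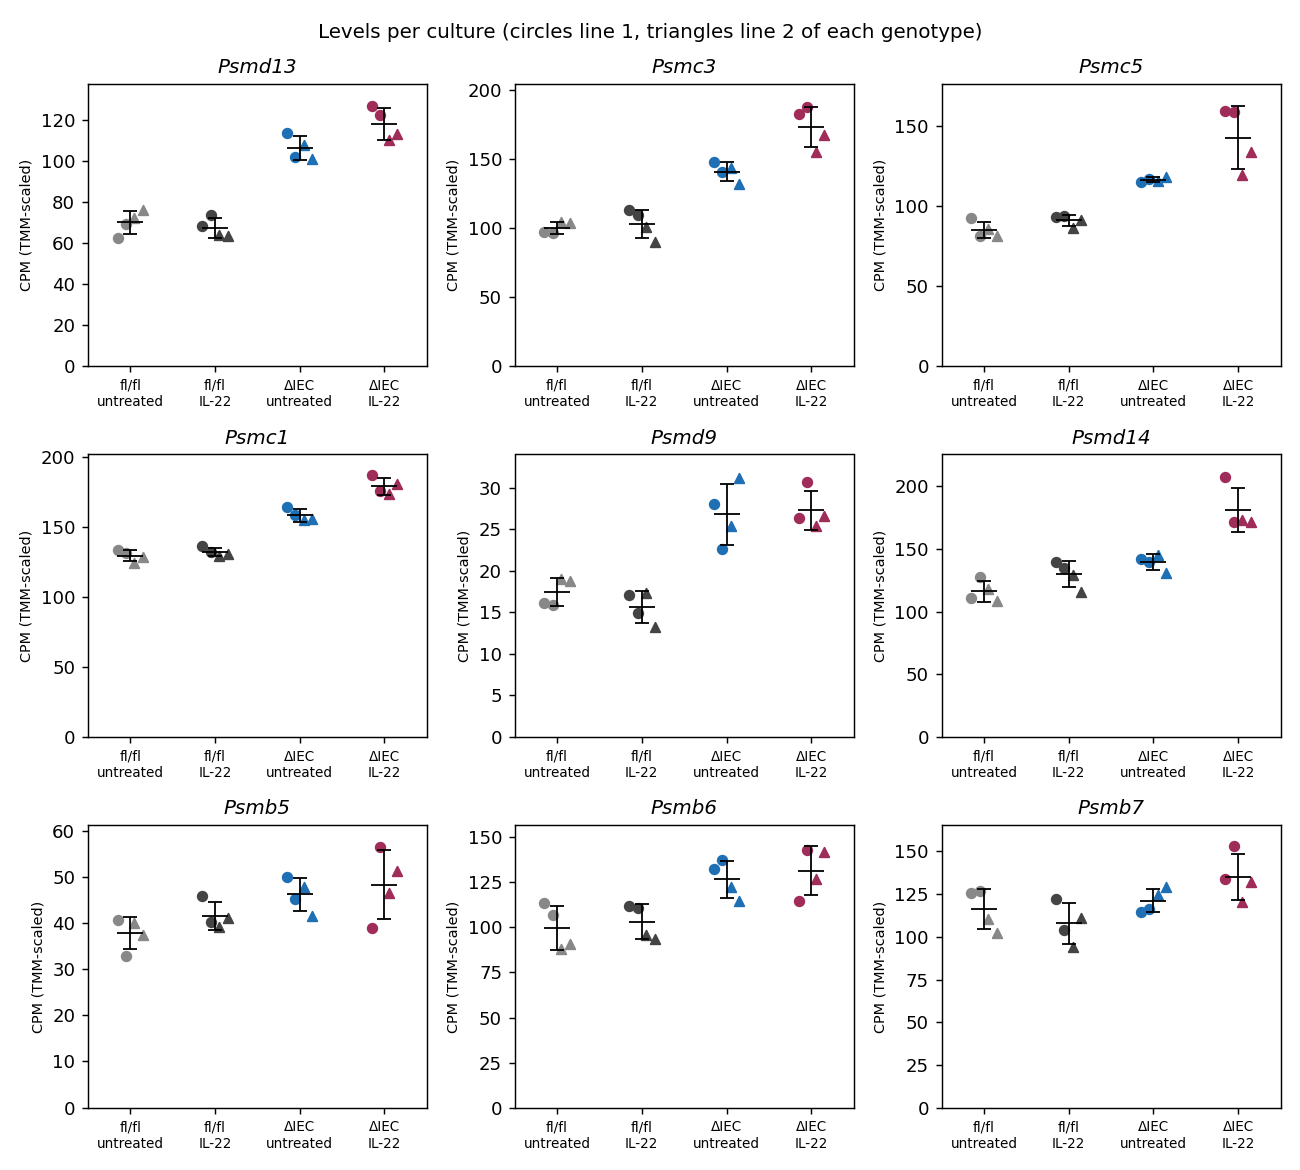
Level of 9 proteasome genes in each culture (vertical axis, TMM-scaled CPM from 0) for the 4 groups, with circles for line 1 and triangles for line 2 of each genotype and bars for mean and SD (n = 4). The 8 ΔIEC cultures lie above the 8 fl/fl cultures for *Psmd13*, at 101 to 127 against 62.5 to 76.2 CPM, while the groups overlap for *Psmb7*.

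With IL-22 present, the genotype comparison used other cultures of the same lines, and more subunits passed in it. Of the 34 tested genes, 19 were called higher and 0 lower in ΔIEC organoids, where 9.91% of all genes tested were called higher and 9.84% lower. All 34 log2 fold changes were above 0, beside 50.6% of all genes, and their median was 0.35 beside 0.01 for all genes. For 24 of 34 genes the 4 ΔIEC cultures lay above the 4 fl/fl cultures, beside 15.4% of all genes. At an unadjusted p under 0.05, 32 genes were higher and 0 lower, beside 2819 and 2706 of all 12559 genes, and DESeq2 and limma-voom called 19 and 16 higher and 0 lower. The median difference was 0.29 and 0.23 for the ΔIEC lines against fl/fl line 1, and 0.45 and 0.43 against fl/fl line 2, with 32 to 34 of 34 genes above 0 in each pair.

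The regulatory particle again held more of the calls, 12 of 17 (median log2 fold change 0.37), with 5 of 6 ATPases, 2 of 3 scaffold or receptor subunits and 5 of 8 lid subunits. In the core particle 6 of 14 were called (median 0.34), 3 in the α ring and 3 in the β ring. Of these 6, only *Psma5* passed without fl/fl line 2, and none passed without ΔIEC line 1 or with cultures of a line summed. *Psmd13* had 68.5, 73.6, 64.0 and 63.5 CPM in fl/fl and 127, 122, 111 and 113 CPM in ΔIEC cultures, a log2 fold change of 0.81 ± 0.0821 (adjusted p = 1.54e-06). *Psmc3* had 113, 109, 101 and 89.9 CPM in fl/fl and 183, 187, 155 and 168 CPM in ΔIEC cultures, a log2 fold change of 0.75 ± 0.0813 (adjusted p = 3.14e-06). *Psmc5* had 93.0, 93.7, 86.5 and 91.1 CPM in fl/fl and 159, 159, 119.7 and 134 CPM in ΔIEC cultures, with the fold change in log2 at 0.65 ± 0.0859 (adjusted p = 2.17e-05). The genotypes did not overlap in these 3 genes, and in each the ΔIEC cultures of line 1 were above those of line 2.

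*Psmd9* had 17.03, 14.96, 17.3 and 13.2 CPM in fl/fl and 26.3, 30.7, 25.4 and 26.6 CPM in ΔIEC cultures, a log2 fold change of 0.80 ± 0.131 (adjusted p = 0.000158). *Psmc1* had 136, 132, 129 and 131 CPM against 187, 176, 173 and 180.3 CPM, a log2 fold change of 0.44 ± 0.0602 (adjusted p = 2.91e-05). *Psmd1* had 159, 152, 148 and 135 CPM against 211, 219, 183 and 201 CPM, with the fold change in log2 at 0.46 (adjusted p = 0.000125). The genotypes were apart in all 3 genes. In the core particle *Psma5*, an α subunit, had 114, 108, 105 and 96.2 CPM in fl/fl and 189.6, 166, 122 and 169 CPM in ΔIEC cultures. It did not overlap, with ΔIEC culture 3 the lowest of its group, and its log2 fold change was 0.61 ± 0.105 (adjusted p = 0.000250).

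Of the 3 catalytic subunits 1 passed with IL-22. *Psmb6* had 112, 111, 95.9 and 93.5 CPM in fl/fl and 115, 143, 127 and 142 CPM in ΔIEC cultures, without overlap, and passed narrowly (0.36 ± 0.0989, adjusted p = 0.00929). *Psmb7* had 122, 104, 94.2 and 111 CPM against 134, 153, 121 and 132 CPM, with 1 ΔIEC culture below the highest fl/fl culture, and did not pass (0.33 ± 0.0952, adjusted p = 0.0120). *Psmb5* had 45.9, 40.2, 39.0 and 41.0 CPM against 38.9, 56.5, 46.5 and 51.2 CPM, with overlap, and did not pass (0.23 ± 0.109, adjusted p = 0.102). *Psmd4*, called untreated, did not pass with IL-22 (0.19 ± 0.0707, adjusted p = 0.0486). *Psmb2*, a structural β subunit, had a log2 fold change of 0.01 with a 95% interval of -0.18 to 0.20.

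Without IL-22–treated fl/fl culture 3 the count of 19 fell to 12, and it was 9 without fl/fl line 2 and 10 without ΔIEC line 1. With the cultures of a line summed, edgeR called 2 of 34, *Psmd13* and *Psmc3*, beside 56 higher and 132 lower of 13871 genes.

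IL-22 itself was compared with no treatment within each genotype, with the same cultures that enter the genotype comparisons, so the values are set side by side and not correlated. In fl/fl organoids 0 of 34 genes were called higher and 0 lower in edgeR, where 10.6% of all genes tested were called higher and 10.2% lower. At an unadjusted p under 0.05, 1 gene was higher (*Psmd7*, 0.18 ± 0.0829) and 1 lower (*Psmd5*, -0.18 ± 0.0762), beside 2436 and 2829 of all 12559 genes, and DESeq2 and limma-voom called 0 in either direction. The median log2 fold change was 0.05 beside -0.05 for all genes, the values ran from -0.18 to 0.18, and 23 of 34 were above 0, beside 44.7% of all genes. For 0 of 34 genes the 4 treated cultures lay above the 4 untreated ones, beside 15.4% of all genes, and for 1 of 34, *Psmd5*, they lay below, beside 15.4% of all genes. Scaled by library totals in place of TMM, the median of the members turned to -0.03, with that of all genes at -0.12. *Psmd13* illustrates the overlap, with 68.5, 73.6, 64.0 and 63.5 CPM treated against 62.5, 69.4, 72.5 and 76.2 CPM untreated (log2 fold change -0.06, 95% interval -0.23 to 0.12).

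In ΔIEC organoids 3 of 34 genes were higher after IL-22 and 0 lower, where 9.83% of all genes tested were called higher and 7.65% lower. In this fit, which does not use the line that treated and untreated cultures share, the share of members called was close to the background. The log2 fold change was above 0 for 32 of 34 genes, beside 49.1% of all genes, and its median was 0.18 beside -0.01, or 0.06 beside -0.12 with library totals. At an unadjusted p under 0.05, 15 were higher and 0 lower, beside 2507 and 2320 of all 12559 genes, and for 10 of 34 the treated cultures lay above all untreated ones, beside 14.1% of all genes. *Psmd14*, the lid deubiquitinase, had 142, 139.8, 145 and 131 CPM untreated and 207, 171, 173 and 172 CPM treated, a log2 fold change of 0.37 ± 0.0824 (adjusted p = 0.00187). Culture 1 was the highest of the treated group and all 4 were above the untreated cultures. *Psmc2* went from 128, 120.3, 134 and 124 to 164, 146, 146 and 161 CPM, a log2 fold change of 0.29 ± 0.0759 (adjusted p = 0.00773). *Psmc3* went from 148, 141, 143 and 132 to 183, 187, 155 and 168 CPM, with the fold change in log2 at 0.30 ± 0.0805 (adjusted p = 0.00908). The treated and untreated cultures did not overlap for these ATPases. The other members, among them *Psmd13* at 0.15 and *Psmb5* at 0.07, did not pass.

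This count of 3 depended on the fit. With organoid line as a block it was 8, adding *Psma3*, *Psmc5*, *Psmc6*, *Psmd2* and *Psmd3*. The share of all genes called in that fit is not given here, so the 8 cannot be set against a background. With library totals or with the cultures of a line summed edgeR called 0 (at an unadjusted p under 0.05, 3 higher and 2 lower with library totals, and 9 higher and 0 lower with cultures summed). It was 1 without fl/fl IL-22 culture 2, without ΔIEC untreated culture 1, 2 or 4 and without ΔIEC IL-22 culture 4, 6 without ΔIEC IL-22 culture 3, and 0 without either ΔIEC line.

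**Figure D3:**
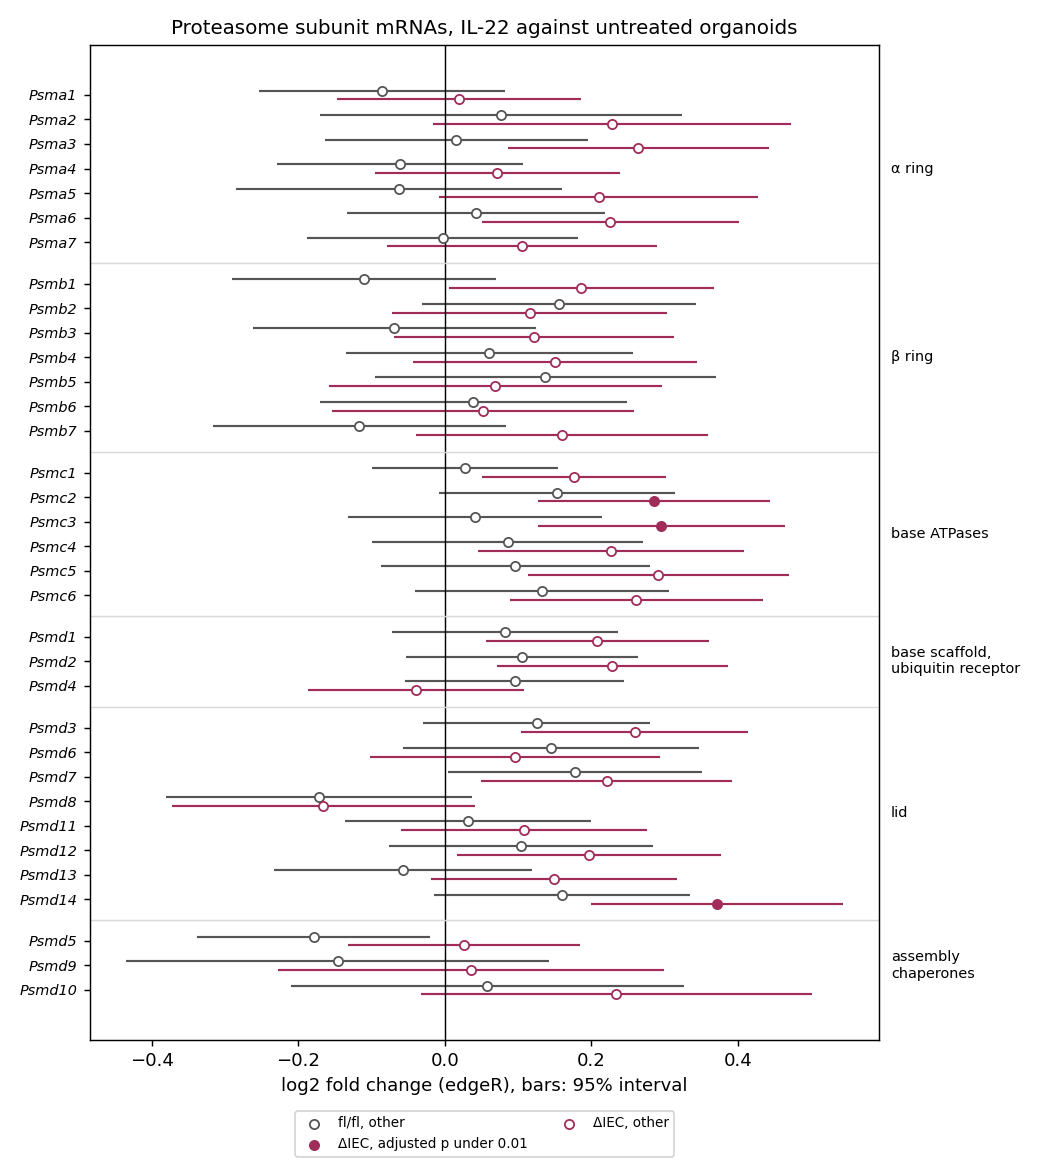
Log2 fold change of IL-22–treated against untreated organoids (horizontal axis, edgeR, bars 95% intervals) for each of the 34 tested proteasome genes, grouped by their place in the complex, in fl/fl (grey) and ΔIEC (magenta) organoids. Filled points passed an adjusted p under 0.01, which were 0 genes in fl/fl cultures and 3 in ΔIEC cultures.

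The IL-22 effect in ΔIEC minus that in fl/fl organoids was tested as an interaction. In edgeR 0 of 34 genes were called in either direction, where 0.00796% of all genes tested were called higher and 0.00796% lower. The median difference was 0.13 beside 0.03 for all genes, with 30 of 34 above 0 beside 54.8% of all genes, and the median was 0.05 without fl/fl line 2. At an unadjusted p under 0.05, beside 537 higher and 375 lower of all 12559 genes, 2 were higher and 0 lower, namely *Psmb1* (0.30 ± 0.122, adjusted p = 0.576) and *Psmc3* (0.25 ± 0.116, adjusted p = 0.655). DESeq2, limma-voom and the fit with line as a block called 0 in either direction. The larger number of calls in the genotype comparison with IL-22 was thus not accompanied by a called difference between the treatments for any member.

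Other genes of the pathway were described from lists, and *Sem1*, *Psmb11*, *Psmg1*, *Ddi2*, *Uchl5*, *Lgr5* and *Cdx2* were picked out of them after their values were seen. Of the subunit genes that the naming rule does not reach, *Adrm1* encodes a ubiquitin receptor of the base. It was higher in ΔIEC than in fl/fl cultures among those given IL-22 (0.37, adjusted p = 0.00840) and did not pass untreated (0.36, adjusted p = 0.0192). *Sem1* was called in neither genotype comparison, and the thymic catalytic gene *Psmb11* was too low to be tested. The 5 genes for assembly of the core had 0 calls between untreated ΔIEC and fl/fl cultures, with 1 higher and 0 lower at an unadjusted p under 0.05. Among IL-22–treated cultures *Pomp* (0.45, adjusted p = 0.00122) and *Psmg1* (0.46, adjusted p = 0.00839) were higher in ΔIEC than in fl/fl. In fl/fl organoids the chaperone gene *Psmg2* fell with IL-22 (-0.73, adjusted p = 0.000606). Of the 5 genes for activators and the inhibitor of the core, 0 were called between untreated genotypes (1 higher at an unadjusted p under 0.05). Among IL-22–treated cultures 4 were higher in ΔIEC than in fl/fl: *Psme1* (0.45), *Psme2* (0.54), *Psme3* (0.25) and *Psmf1* (0.38). *Psme2* also rose with IL-22 in ΔIEC organoids (0.47, adjusted p = 0.00106).

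Of the 3 immunoproteasome genes, 1 was higher with IL-22 in fl/fl organoids and 2 in ΔIEC organoids. *Psmb10* averaged 57.1 ± 8.32 CPM in untreated fl/fl and 57.7 ± 1.84 in untreated ΔIEC cultures, and rose with IL-22 to 78.7 ± 8.54 in fl/fl (0.47, adjusted p = 0.00219) and 101 ± 10.7 CPM in ΔIEC organoids (0.81, adjusted p = 9.14e-06). *Psmb8* averaged 11.9 CPM in untreated fl/fl and 10.2 CPM in untreated ΔIEC cultures, and rose with IL-22 in ΔIEC organoids (1.26, adjusted p = 1.82e-05) but did not pass in fl/fl (0.59, adjusted p = 0.0123). *Psmb9* was called in no comparison. In the genotype comparisons 0 of 3 were called, with 0 untreated and 3 with IL-22 at an unadjusted p under 0.05. The 3 genes summed to 97.0, 90.9, 78.0 and 71.7 CPM in untreated fl/fl, 86.1, 78.7, 89.7 and 86.8 in untreated ΔIEC cultures, and with IL-22 to 97.8, 113, 118 and 114 CPM in fl/fl and 124, 166, 141 and 155 CPM in ΔIEC cultures.

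Among 11 regulators linked to proteasome transcription, of which 10 were tested, 0 were higher and 1 lower in untreated ΔIEC cultures, and 0 were higher and 2 lower with IL-22. The gene lower in both was *Bach1*, a repressor of NRF2 target genes, at -0.79 (adjusted p = 2.32e-05) and -0.85 (adjusted p = 5.07e-06). *Nfe2l1*, which encodes NRF1, averaged 227 CPM in untreated fl/fl, 199 in untreated ΔIEC cultures, and with IL-22 328 CPM in fl/fl and 241 CPM in ΔIEC cultures. It was lower in ΔIEC than in fl/fl with IL-22 (-0.44, adjusted p = 0.000659) and rose with IL-22 in fl/fl organoids (0.53, adjusted p = 8.34e-05), and the interaction did not pass (adjusted p = 0.693). Its processing genes *Ddi2* and *Ngly1* and the extraction factor gene *Vcp* were called in neither genotype comparison. *Ngly1* rose with IL-22 in both genotypes (0.79 and 0.68), as did *Mafk* (0.75 and 0.52), a small MAF partner. *Nfe2l2*, which encodes NRF2, was called in no comparison. Of 8 NRF2 target genes, 1 was higher in ΔIEC than in fl/fl cultures untreated (*Slc7a11*, 0.52, adjusted p = 0.00419). Among IL-22–treated cultures 2 were higher in ΔIEC (*Slc7a11*, 0.72, and *Gclm*, 0.62), with 0 lower in each comparison. Against no treatment, IL-22 raised 4 and lowered 2 in fl/fl and raised 4 and lowered 0 in ΔIEC organoids.

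Shuttle factors and receptors gave few calls. The ubiquitin gene *Ubb* passed in neither genotype comparison, with a log2 fold change of 0.36 ± 0.201 untreated (adjusted p = 0.215) and -0.14 ± 0.198 with IL-22 (adjusted p = 0.631). Of 13 deubiquitinases and shuttle factors 0 were called between untreated genotypes (3 higher and 2 lower at an unadjusted p under 0.05). Among IL-22–treated cultures the proteasome-bound deubiquitinase gene *Uchl5* was higher in ΔIEC than in fl/fl (0.56, adjusted p = 0.00348) and *Zfand5* lower (-0.41, adjusted p = 0.00183). *Zfand5* rose with IL-22 in both genotypes (0.96 and 0.78). Of 6 autophagy cargo receptor genes *Optn* was lower in untreated ΔIEC cultures (-0.38, adjusted p = 0.00339) and 0 were called with IL-22 (1 higher and 4 lower at an unadjusted p under 0.05). *Sqstm1*, which encodes the receptor p62, averaged 168 CPM in untreated fl/fl and 166 CPM in untreated ΔIEC cultures, and rose with IL-22 in fl/fl (1.10, adjusted p = 4.22e-05) and ΔIEC organoids (0.71, adjusted p = 0.00298).

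Complexes of similar build were taken as comparators for the values of ΔIEC against fl/fl. The COP9 signalosome, which resembles the lid, had 1 of 10 genes higher untreated (median log2 fold change 0.20) and 3 of 10 with IL-22 (0.24). The translation initiation complex eIF3 had 1 higher and 1 lower of 14 untreated (0.15) and 5 higher with IL-22 (0.23). The CCT chaperonin, a folding machine, had 1 of 8 higher untreated (0.18) and 5 of 8 with IL-22 (0.29). These medians stand beside 0.24 and 0.35 for the proteasome set, and the differences between lists were not tested. IL-22 in fl/fl organoids lowered 6 of 14 eIF3 genes, with 1 higher, and 2 of 8 CCT genes. It lowered 0 of 10 COP9 genes and 0 proteasome genes, beside 10.2% of all genes tested.

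**Figure D4:**
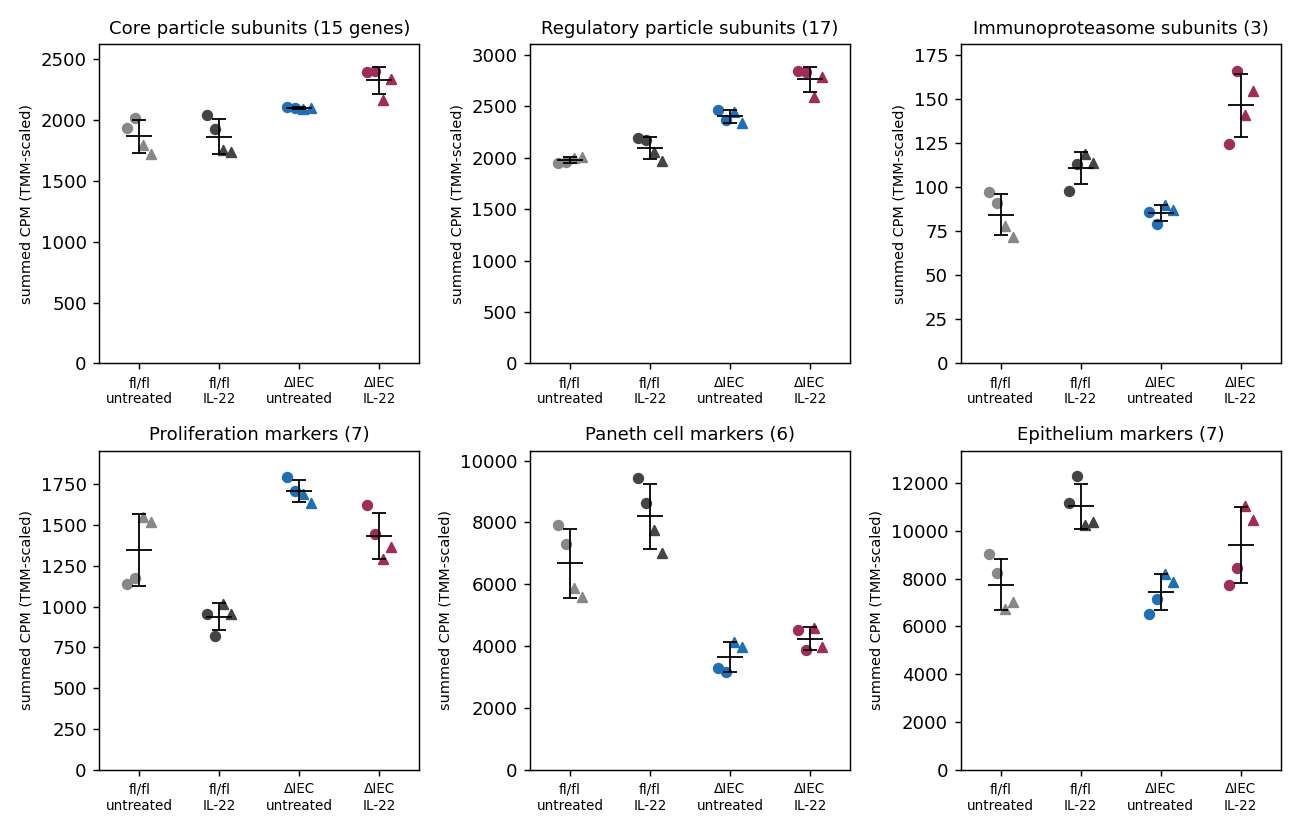
Summed level of 6 gene lists in each culture (vertical axes, TMM-scaled CPM from 0) for the 4 groups, with circles for line 1 and triangles for line 2 of each genotype and bars for mean and SD (n = 4). Core and regulatory particle sums are higher in all ΔIEC cultures, proliferation markers are lower with IL-22 in both genotypes, and Paneth cell markers are lower in all ΔIEC cultures.

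Markers of cell state and cell type also differed between the groups, and their part in the proteasome values was not tested. Of 7 proliferation genes 2 were higher in untreated ΔIEC cultures and 6 with IL-22, and 7 fell with IL-22 in fl/fl and 3 in ΔIEC organoids. They summed to 1137, 1175, 1550 and 1522 CPM in untreated fl/fl and 1798, 1709, 1691 and 1636 CPM in untreated ΔIEC cultures. With IL-22 they summed to 956, 821, 1018 and 957 CPM in fl/fl and 1626, 1448, 1293 and 1365 CPM in ΔIEC cultures, with *Top2a* the most abundant. The genotypes did not overlap in either treatment, and fl/fl line 1 was below line 2 untreated. In mean sums, ΔIEC was 1.27 times fl/fl untreated and 1.53 times with IL-22, beside 1.17 and 1.29 for the proteasome genes. IL-22–treated fl/fl cultures were at 0.697 times the untreated ones for proliferation and at 1.03 times for proteasome genes. In ΔIEC organoids the mean sum was 1708 CPM untreated and 1433 CPM with IL-22 for proliferation, with all treated below all untreated cultures, and 4611 and 5204 CPM for proteasome genes.

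Of 5 stem cell genes 3 were higher in untreated ΔIEC cultures, namely *Olfm4* (2.04), *Ascl2* (1.23) and *Smoc2* (0.35), and 0 were lower. At an unadjusted p under 0.05, 4 were higher and 1 lower untreated. The lower one was *Lgr5* (-0.58), with 1328 counts in untreated fl/fl and 849 in untreated ΔIEC cultures. Among IL-22–treated cultures *Olfm4*, *Ascl2* and *Smoc2* were again higher in ΔIEC than in fl/fl, and *Lgr5* was lower (-0.86). The list, led by *Olfm4*, summed to 384, 417, 611 and 576 CPM in untreated fl/fl, 1065, 909, 988 and 1039 in untreated ΔIEC cultures, and with IL-22 to 244, 229.7, 267 and 253 CPM in fl/fl and 495, 355, 408 and 357 CPM in ΔIEC cultures. Of 6 Paneth cell genes 3 were lower in untreated ΔIEC cultures and 5 with IL-22. Led by the defensin gene *Defa24*, they summed to 7930, 7314, 5863 and 5593 CPM in untreated fl/fl, 3289, 3154, 4135 and 3978 in untreated ΔIEC cultures, and with IL-22 to 9428, 8644, 7745 and 7012 CPM in fl/fl and 4512, 3876, 4599 and 3959 CPM in ΔIEC cultures. The ΔIEC cultures were below all fl/fl cultures for this list within each treatment. For the stem cell list the summed level of the ΔIEC cultures was above that of all fl/fl cultures of the same treatment, but with IL-22 this rested on *Olfm4*, without which the sums of the genotypes overlapped.

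Of 6 goblet cell genes 3 were lower in ΔIEC than in fl/fl cultures untreated, and 4 among those given IL-22. Led by *Fcgbp*, they summed to 3127, 3117, 1916 and 1996 CPM in untreated fl/fl, 1372, 1443, 1858 and 1813 in untreated ΔIEC cultures, and with IL-22 to 2728, 2759, 1970 and 1781 CPM in fl/fl and 802, 881, 1448 and 1209 CPM in ΔIEC cultures. The 2 lines of each genotype stood apart here in both treatments. Of 5 enteroendocrine genes 1 was lower in ΔIEC than in fl/fl cultures untreated, and 2 among those given IL-22. The list, led by *Chgb*, summed to 336 to 588 CPM in untreated fl/fl and 199 to 339 in untreated ΔIEC cultures. With IL-22 it summed to 484 to 662 CPM in fl/fl and 224 to 451 CPM in ΔIEC cultures. In both treatments line 1 was above line 2 in fl/fl and below it in ΔIEC organoids for this list. Untreated, line 2 overlapped between the genotypes, at 336 and 356 CPM in fl/fl and 339 and 334 CPM in ΔIEC cultures. None of these epithelial lists had a gene at 0 counts. Of 4 tuft cell genes 2 were tested and 0 were called (0 at an unadjusted p under 0.05). Of 7 general epithelial genes 0 were called between untreated genotypes (1 lower at an unadjusted p under 0.05). Among IL-22–treated cultures *Cdx2* was lower in ΔIEC than in fl/fl (-0.31).

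Some members share sequence or position with other genes, which bears on their counts. *Psmb5* shares 36.8% of its 75-base stretches with other genes, mainly the pseudogene *Gm3375*, which took 754 counts where *Psmb5* took 2370, so its values are uncertain. *Psma5* shares 35.2%, with pseudogenes that took 69 and 4 counts. *Psma3* and *Psmb3*, both called with IL-22, share 14.3% and 10.3%. The *Psma3* pseudogene *Gm13835* took 293 counts where *Psma3* took 9072. *Gm13835* and *Gm3375*, looked at after their values were seen, were higher in IL-22–treated ΔIEC than fl/fl cultures (0.90, adjusted p = 0.00939, and 0.55, adjusted p = 0.00823). Untreated they were not (-0.25, adjusted p = 0.584, and -0.03, adjusted p = 0.94). *Psmd13* overlaps *Sirt3*, on the opposite strand, over 342 exon bases (10.1%). *Sirt3*, looked at after its values were seen, averaged 25.8 CPM in untreated fl/fl and 15.2 CPM in untreated ΔIEC cultures (-0.77, adjusted p = 0.00273), opposite in direction to *Psmd13*. *Psmb7* overlaps *Nek6* over 11.8% and *Psmc3* overlaps *Slc39a13* over 8.25% of its exon bases, also on the opposite strand, and *Slc39a13*, also looked at after its values were seen, averaged 3.95 CPM in untreated fl/fl and 5.93 CPM in untreated ΔIEC cultures (0.55, adjusted p = 0.185). The labels name the TruSeq RNA v2 kit, the paper a stranded total RNA protocol, and neither gives the strand setting of the counting, so counts in these overlaps cannot be told apart. *Psmd9* overlaps a noncoding gene over 25.5% of its exons, which took 3 counts in all.

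Promoter sequences are shown because subunit genes are known to share control elements. The table of RefSeq promoters used (GRCm38.p6) holds a promoter of 300 bases, from 250 before to 50 after the start of the transcript, for 28 of the 35 genes, and for 27025 genes in all. That table has no entry for *Psma8*, *Psmb1*, *Psmb2*, *Psmb7*, *Psmc3*, *Psmd3* and *Psmd7*. TGACNNNGC, the core of the element bound by NRF1 and NRF2, occurred on either strand in 5 of 28 (17.9%), namely *Psmb5*, *Psmb6*, *Psmc6*, *Psmd9* and *Psmd12*, beside 17.03% of the 9290 tested genes with an entry and 13.99% of all. CCGGAA, the core bound by ETS factors, occurred in 15 of 28 (53.6%), beside 32.6% and 16.7%. CCAAT occurred in 11 of 28 (39.3%), beside 42.9% and 41.1%, and the α-PAL palindrome, bound by the NRF1 of respiratory genes, which is not the product of *Nfe2l1*, in 1 of 28 (3.57%), beside 2.35% and 1.07%. The motifs do not contain one another. In the untreated genotype comparison 1 of 5 members with TGACNNNGC and 7 of 23 without it were higher, and 6 of 15 with CCGGAA and 2 of 13 without it. With IL-22 the counts were 2 of 5 and 14 of 23, and 9 of 15 and 7 of 13. A match is a match of letters and no evidence of binding.

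The 4 members with an entry and the smallest p in the untreated comparison are printed with *Psmb6*, the catalytic subunit gene with the smallest p, in lower case from 5′ to 3′ on the strand of the gene. Capitals mark TGACNNNGC or CCGGAA on either strand. They lie at chr7:140882144-140882443 (forward strand) for *Psmd13*, chr11:106255935-106256234 (forward strand) for *Psmc5*, chr12:100109952-100110251 (forward strand) for *Psmc1*, chr5:123227940-123228239 (forward strand) for *Psmd9* and chr11:70525107-70525406 (forward strand) for *Psmb6*. CCGGAA begins 6 bases before the start in *Psmd13* and 95 before it in *Psmc5*, its reverse complement 27 before it in *Psmc1*, and TGACNNNGC 31 before it in *Psmd9* and 9 before it in *Psmb6*.
Psmd13: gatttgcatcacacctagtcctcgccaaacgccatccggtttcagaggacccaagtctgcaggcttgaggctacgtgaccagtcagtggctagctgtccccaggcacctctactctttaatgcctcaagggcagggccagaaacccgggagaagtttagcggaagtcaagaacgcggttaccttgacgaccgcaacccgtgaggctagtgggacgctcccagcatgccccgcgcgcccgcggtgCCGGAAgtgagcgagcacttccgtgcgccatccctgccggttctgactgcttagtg
Psmc5: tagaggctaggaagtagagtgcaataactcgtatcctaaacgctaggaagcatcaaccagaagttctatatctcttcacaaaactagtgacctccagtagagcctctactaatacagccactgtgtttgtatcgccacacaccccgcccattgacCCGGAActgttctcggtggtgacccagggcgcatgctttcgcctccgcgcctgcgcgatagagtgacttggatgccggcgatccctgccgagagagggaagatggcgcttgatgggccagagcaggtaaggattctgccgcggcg
Psmc1: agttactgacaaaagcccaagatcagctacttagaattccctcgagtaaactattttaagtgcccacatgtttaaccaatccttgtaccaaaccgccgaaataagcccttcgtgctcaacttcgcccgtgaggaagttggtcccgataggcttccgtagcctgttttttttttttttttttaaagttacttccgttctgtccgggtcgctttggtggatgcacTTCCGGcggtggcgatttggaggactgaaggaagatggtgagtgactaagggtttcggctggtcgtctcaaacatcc
Psmd9: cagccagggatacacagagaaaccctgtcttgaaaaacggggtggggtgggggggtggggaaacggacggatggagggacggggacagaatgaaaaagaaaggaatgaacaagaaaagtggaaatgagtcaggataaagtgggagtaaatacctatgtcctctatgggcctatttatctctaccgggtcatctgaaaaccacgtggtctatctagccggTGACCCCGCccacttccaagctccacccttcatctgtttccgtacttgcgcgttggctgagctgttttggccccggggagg
Psmb6: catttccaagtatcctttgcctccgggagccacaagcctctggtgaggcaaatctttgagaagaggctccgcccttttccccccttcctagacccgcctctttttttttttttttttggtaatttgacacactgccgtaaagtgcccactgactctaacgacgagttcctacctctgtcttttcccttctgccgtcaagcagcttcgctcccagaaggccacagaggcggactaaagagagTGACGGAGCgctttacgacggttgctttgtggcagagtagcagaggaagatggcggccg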

How the data were processed

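RNA was sequenced in pairs of reads from 16 organoid cultures, 4 in each of 4 groups. Per the labels, the authors trimmed reads with cutadapt, aligned them to GRCm38 (mm10) with TopHat2 and deposited raw read counts per gene from HTSeq; no versions are named, and the strand setting is not stated. Lines for reads outside genes held 38.0% to 40.1% of all counts in the table and were left out, as were those for ambiguous and multiply aligned reads. Gene identifiers matched GENCODE vM21 without version for 49326 of 49585 genes (99.48%).

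Counts were scaled by TMM, filtered with filterByExpr and fitted with quasi-likelihood tests in edgeR 4.0.16 (R 4.3.3, prior count 2), as 1 fit of 4 groups, with Benjamini-Hochberg adjustment over 12559 genes and a threshold of 0.01. The common biological coefficient of variation was 0.115. Counts on genes were 2135000 to 5574860 per culture. A gene without counts was bounded at 3 counts, which covers counting error only. Alternatives were DESeq2 1.42.0, limma 3.58.1 with voom and line as a random effect, RLE factors, library totals, other filters, a threshold of 0.05, fits of the compared groups, line as a block, cultures of a line summed, and leaving out each culture and line. Whether cultures 1 and 2 and cultures 3 and 4 share a line across treatments was checked by correlation, with r of 0.0563 to 0.438 within and -0.435 to -0.0779 between lines. Each culture was taken as its difference from its group mean, so positive values within lines bring negative ones between them. The negative range is thus no separate support. Tables and figures used Python 3.11.15, pandas 2.3.3 and matplotlib 3.10.9.

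Members, lists and the genes to be named were fixed before the data were examined, with earlier results of these data known. Values per culture are given for *Psmb5*, *Psmb6*, *Psmb7*, the 5 members with the smallest p past the threshold in each comparison, and members not tested. Those of *Psmb1*, *Psmc2*, *Psmd1*, *Psmd4*, *Psmd6*, *Psmd7* and *Psmd14* untreated and of *Psma5* and *Psmd9* with IL-22 were added after the values were seen. Lists covered assembly, immunoproteasome, activators, regulators, shuttle factors, cargo receptors, NRF2 targets, COP9, eIF3, CCT and cell markers, and no set test was run. Results of some genes and of lists that rest on them are not reported.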

Additional observations from a re-analysis of the deposited data

Results flagged for a closer look

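In 3 of 136 sets of 4 cultures (34 members in 4 groups), 1 culture stood far from the other 3, with a gap to the nearest that was most of the whole range. That is 2.21% of sets, where chance gives about 5.0%. *Psmb1* in untreated ΔIEC culture 2 was lowest at 162 CPM, with the others at 182 to 184 CPM (ratio 0.914). *Psmb4* in IL-22–treated ΔIEC culture 1 was lowest at 212 CPM, with the others at 240 to 245 CPM (0.834). *Psmd14* in IL-22–treated ΔIEC culture 1 was highest at 207 CPM, with the others at 171 to 173 CPM (0.940).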

How the results depend on the processing

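All counts of members called lower were 0 in every alternative tried, and the median log2 fold change of the members stayed above 0 in both genotype comparisons, at 0.20 to 0.32 untreated and 0.26 to 0.40 with IL-22.

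Untreated, 10 members were higher. The count was 10 with DESeq2, 16 at an adjusted p under 0.05, 15 with library totals, 3 with limma-voom and 0 with counts added up per line (edgeR, 17 at an unadjusted p under 0.05). Leaving out 1 culture or line gave 3 to 11: 5 without fl/fl untreated 1, 4 without fl/fl untreated 2, 3 without ΔIEC untreated 1, 5 without ΔIEC untreated 2, 5 without ΔIEC untreated 3, 4 and 6 without fl/fl line 1 and 2, and 3 and 4 without ΔIEC line 1 and 2.

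With IL-22, 19 members were higher. The count was 19 with DESeq2, 25 with library totals, 16 with limma-voom, 13 with the compared groups only and 2 with cultures summed. Leaving out gave 9 to 21: 12 without IL-22–treated fl/fl 3, 9 without fl/fl line 2 and 10 without ΔIEC line 1.

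IL-22 in fl/fl organoids gave 0 calls in edgeR, DESeq2 and limma-voom, and with line as a block (3 higher and 2 lower at an unadjusted p under 0.05). The median of 0.05 turned to -0.029 with library totals. In ΔIEC organoids the count of 3 was 8 with line as a block, 7 with limma-voom, 10 at an adjusted p under 0.05, 4 with DESeq2, 1 without a filter, 1 with the compared groups only, 0 with library totals and 0 with cultures summed (edgeR, 3 higher and 2 lower, and 9 higher and 0 lower, at an unadjusted p under 0.05). Leaving out gave 0 to 6: 1 without IL-22–treated fl/fl 2, 1 without ΔIEC untreated 1, 2 or 4, 6 without IL-22–treated ΔIEC 3, 1 without IL-22–treated ΔIEC 4, and 0 without either ΔIEC line. The interaction gave 0 calls in edgeR, DESeq2 and limma-voom (2, 1 and 4 higher at an unadjusted p under 0.05).

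Library totals moved the median of all genes to -0.12 in both IL-22 comparisons. They changed the calls over all genes (higher and lower) from 475 and 751 to 849 and 533 untreated, from 1245 and 1236 to 1495 and 1028 with IL-22, from 1329 and 1279 to 1048 and 1759 for IL-22 in fl/fl, and from 1234 and 961 to 865 and 1597 for IL-22 in ΔIEC organoids. The cause was not tested.

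*Psmd13* and *Psmc3* passed in 28 of 28 alternatives with IL-22 and 27 of 28 untreated, where they did not pass with cultures summed (adjusted p 3.06e-08 to 0.0386 and 3.06e-06 to 0.0648). Untreated, *Psmc5* passed in 25, *Psmd6* in 14 and *Psmd7* in 10 of 28.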
